A study of Mus musculus with 76 samples.

Results

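The genes described here encode the enzymes that remove superoxide and peroxides from the cell: the 6 peroxiredoxins (Prdx1 to Prdx6), the superoxide dismutases Sod1 and Sod2, and the glutathione peroxidases Gpx1 and Gpx4. They were taken by gene symbol from the tables of normalized counts of visceral white adipose tissue (WAT) and liver, and all 10 had a row in both, among 20295 entries found in either table. RNA came from female mice fed ad libitum that were homozygous for the ancestral allele (Fnip2 T/T) or for a knock-in allele (Fnip2 C/C) of Fnip2, which encodes a partner of folliculin in nutrient signaling to mTORC1. The knock-in was made by genome editing in zygotes of a C57BL/6 background and exchanges a T for a C in the 3′ untranslated region, together with 1 further base substituted nearby, so both changes are part of the Fnip2 C/C group and absent from Fnip2 T/T. The change is present in every cell of the animal, and the labels give no age for the mice. WAT libraries came from 4 Fnip2 C/C mice (numbers 590, 593, 599 and 638) and 5 Fnip2 T/T mice (607, 608, 609, 657 and 658), and liver libraries from 5 Fnip2 C/C mice (590, 591, 592, 638 and 639) and 5 Fnip2 T/T mice (607, 608, 657, 658 and 659).

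Superoxide leaks from mitochondria and is made by oxidases. Superoxide dismutases turn it into hydrogen peroxide, Sod1 mainly in the cytosol and Sod2 in the mitochondrial matrix. Peroxiredoxins reduce hydrogen peroxide and organic peroxides with a reactive cysteine, which most of them recharge through thioredoxin. Gpx1 and Gpx4 are selenoproteins that use glutathione, and Gpx4 also reduces peroxides within membrane lipids. Liver is rich in these enzymes, and in fat cells they accompany lipid storage and mitochondrial oxidation.

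The library kit (QuantSeq) sequences the 3′ ends of polyadenylated RNA, and the WAT libraries held 4180209 to 6277644 reads assigned to genes, against 5583041 to 7523200 in liver. Adipocyte markers were abundant in WAT, with summed normalized counts (reads divided by 1 size factor per library) from 135798 to 382175 in Fnip2 C/C and from 302943 to 529374 in Fnip2 T/T, and hepatocyte markers summed to 647834 or more in each liver. Marker genes of several cell types were called by genotype in WAT with the limma test used below, which called 32.1% of all genes tested there. Lower in Fnip2 C/C were 7 of the 12 adipocyte markers tested (median log2 fold change -1.08), 4 of 5 erythroid, 2 of 3 hepatocyte, 2 of 6 hepatic stellate and cholangiocyte and 1 of 4 oviduct and uterus markers. Both directions occurred among macrophage (3 lower and 1 higher of 10), fibroblast and progenitor (1 and 3 of 9), endothelial (2 and 2 of 8) and smooth muscle markers (2 and 1 of 7), and 1 of 6 ovary genes was higher. None was called among mesothelial, T, B and NK cell, exocrine pancreas, intestinal and Schwann cell markers, nor in any marker list in liver. The summed erythroid markers reached 3046 to 4305 in Fnip2 C/C and 10332 to 13813 in Fnip2 T/T WAT. One WAT library, of the Fnip2 C/C mouse 593, held ovary genes at a sum of 24006, against 51.4 to 127 in the Fnip2 T/T libraries. The same library had the lowest adipocyte sum, 135798, against 262803 to 382175 in the other Fnip2 C/C libraries. Mitochondrially encoded transcripts took 10.6% to 18.8% of reads in Fnip2 C/C and 13.3% to 18.9% in Fnip2 T/T WAT. The part of these cell types and library properties in the values below was not tested. The RNA numbers that name the WAT columns are even for Fnip2 C/C and odd for Fnip2 T/T, which is not so in liver, so any order of processing tied to these numbers and the genotype cannot be told apart in WAT.

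In WAT, Prdx1, Sod2 and Prdx3 were lower in Fnip2 C/C than in Fnip2 T/T mice, and the other 7 genes did not pass the test. The difference was largest for Prdx1, at 145 ± 76.8 normalized counts (SD, n = 4) in Fnip2 C/C against 1291 ± 384 (SD, n = 5) with the T/T genotype. Sod2 reached 74.4 ± 34.6 (SD, n = 4) against 512 ± 265 (SD, n = 5), and Prdx3 reached 11.1 ± 9.43 (SD, n = 4) against 81.0 ± 66.2 (SD, n = 5). These 3 of 10 calls stand beside 4111 of all 12798 genes tested in WAT (32.1%), of which 17.0% of the tested genes were lower and 15.1% higher in Fnip2 C/C. The share of called antioxidant genes was therefore close to that of all genes, and since the genes were chosen by symbol with their WAT normalized counts in both genotypes already known, their differences are given as a description. The median log2 fold change of the 10 genes was -0.20, against 0.02 over all genes tested. In whole tissue, fewer cells of a type and less RNA per cell cannot be told apart.

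**Figure D1:**
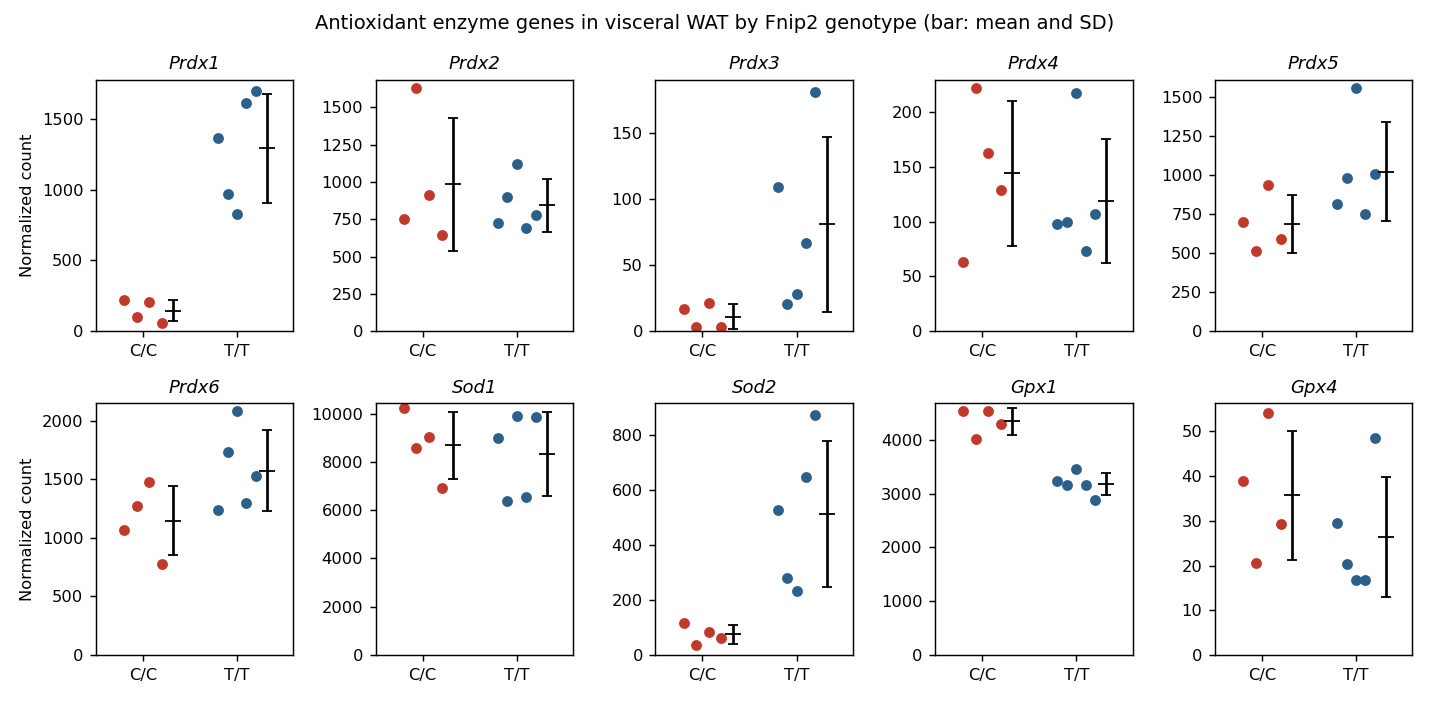
Normalized counts (y axis, linear, from 0) of each of the 10 genes in visceral WAT, with 1 point per mouse (4 Fnip2 C/C in red, 5 Fnip2 T/T in blue, in order of mouse number) and bars for the mean and SD. The Fnip2 C/C points of Prdx1 and Sod2 all lie below the Fnip2 T/T points, those of Gpx1 all lie above, and the genotypes overlap in the other 7 genes.

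Prdx1 is the abundant cytosolic peroxiredoxin and a partner of many thiol signaling proteins. Its normalized counts in WAT were 218, 100, 203 and 60.9 in the Fnip2 C/C mice 590, 593, 599 and 638, and 1361, 967, 824, 1609 and 1693 in the Fnip2 T/T mice 607, 608, 609, 657 and 658. Every Fnip2 C/C library was thus below every Fnip2 T/T library, with the lowest value in mouse 638. The log2 fold change was -3.27 (standard error (SE) 0.36, adjusted p = 0.00037 in limma), a level 9.62-fold lower in Fnip2 C/C. The values rest on 52 to 187 reads per Fnip2 C/C library and 738 to 2234 reads per Fnip2 T/T library. Scaled to 1000000 reads per library (RPM), Prdx1 stood at 30.2 ± 15.0 (SD, n = 4) and 288 ± 92.2 (SD, n = 5).

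Sod2, the manganese superoxide dismutase of the mitochondrial matrix, had normalized counts of 118, 35.6, 82.4 and 62.1 in the Fnip2 C/C mice 590, 593, 599 and 638. In the Fnip2 T/T mice 607, 608, 609, 657 and 658, its counts were 525, 279, 233, 649 and 872. The genotypes did not overlap here either, and the Fnip2 T/T mice 608 and 609, which were also low for Prdx1, were the lowest of their group. The log2 fold change was -2.72 (SE 0.41, adjusted p = 0.0011 in limma), or 6.59-fold lower in Fnip2 C/C.

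Prdx3 is the peroxiredoxin of the mitochondrial matrix and takes up the peroxide that Sod2 produces. It was sparsely covered in WAT, where reads numbered 14, 3, 20 and 3 for the Fnip2 C/C mice 590, 593, 599 and 638 and 133, 21, 25, 67 and 239 for the Fnip2 T/T mice 607, 608, 609, 657 and 658. As normalized counts these were 16.5, 2.81, 21.7 and 3.51 against 109, 20.4, 27.9, 66.4 and 181. The Fnip2 C/C mouse 599 lay above the Fnip2 T/T mouse 608, so the groups overlapped. The log2 fold change was -2.75 (SE 0.69, adjusted p = 0.011 in limma). It moved to -1.89 when 10 in place of 1 was added before the logarithm, and a minimum mean of 50 removed the gene from the test.

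These 3 genes were lower on average in Fnip2 C/C within each range of mouse numbers. For Prdx1 and Sod2 this direction was fixed in advance, since their genotypes did not overlap, so the values only describe sizes. Among mice numbered under 610 (3 against 3), the log2 difference was -2.64 for Prdx1, -2.19 for Sod2 and -1.83 for Prdx3, and among those over 630 (1 against 2) it was -4.74, -3.58 and -4.62. Without the Fnip2 C/C mouse 593, whose library held the ovary genes, the log2 fold changes were -2.41 for Sod2 and -2.33 for Prdx3. Leaving out any single mouse kept Prdx1 between -3.52 and -2.91, and the same 3 genes were called in WAT each time.

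Gpx1, the abundant cytosolic and mitochondrial glutathione peroxidase, was the one gene of the 10 whose Fnip2 C/C libraries all lay above those of Fnip2 T/T. Its normalized counts were 4532, 4014, 4542 and 4300 in the Fnip2 C/C mice 590, 593, 599 and 638, and 3232, 3172, 3463, 3158 and 2884 in the Fnip2 T/T mice 607, 608, 609, 657 and 658. It varied little within a genotype, with a coefficient of variation of 5.71% in Fnip2 C/C and 6.50% in Fnip2 T/T. The log2 fold change of 0.45 (SE 0.17) did not pass the threshold in limma (adjusted p = 0.062), whereas DESeq2 and limma with library weights called it. Non-overlapping libraries, as found for 3 of the 10 genes, occurred in 26.1% of all genes tested in WAT. An exact two-sided permutation test of each gene alone gave p = 0.0159, the smallest that its 126 groupings can give, for Prdx1, Sod2 and Gpx1, and p = 0.0317 for Prdx3.

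Prdx5 and Prdx6 had lower means in Fnip2 C/C without passing the threshold. Prdx5, which is found in mitochondria, peroxisomes and cytosol, had normalized counts of 702, 511, 935 and 590 in the Fnip2 C/C mice in the order given above and 815, 983, 1557, 751 and 1007 in the Fnip2 T/T mice. Its log2 fold change was -0.57 (SE 0.24, adjusted p = 0.088 in limma), and same-total and quantile scaling called it, whereas library weights brought it to -0.26 (adjusted p = 0.368 in limma). Prdx6, the member with a single active cysteine and a phospholipase activity, had counts of 1067, 1269, 1474 and 778 against 1237, 1731, 2081, 1292 and 1525. Its log2 fold change was -0.47 (SE 0.23, adjusted p = 0.131 in limma), and quantile scaling called it, whereas library weights brought it to -0.22 (adjusted p = 0.418 in limma). In both genes the Fnip2 T/T mouse 609 had the highest value and the groups overlapped.

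The genotypes were interleaved for the remaining 4 genes. Sod1, the copper and zinc dismutase, lay between 6901 and 10224 in Fnip2 C/C and between 6360 and 9907 with T/T, for a log2 fold change of 0.07 (95% interval -0.42 to 0.57) whose sign turned under quantile and same-total scaling. Prdx2, the cytosolic peroxiredoxin abundant in red blood cells, lay between 645 and 1631 and between 689 and 1124, with a log2 fold change of 0.15 (95% interval -0.41 to 0.71). Prdx4, the peroxiredoxin of the endoplasmic reticulum, lay between 63.5 and 222 and between 73.4 and 218, with a log2 fold change of 0.24 (95% interval -0.54 to 1.02). The highest Fnip2 C/C value of Prdx2 and of Prdx4 was in mouse 593, and without that mouse the log2 fold changes were -0.12 and -0.010. Under quantile scaling Prdx2 stood at -0.0023. Gpx4 lay between 20.6 and 54.2 and between 16.7 and 48.5, with a log2 fold change of 0.46 (95% interval -0.35 to 1.26) that ran from 0.23 without mouse 599 to 0.70 without mouse 658.

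Added over the 6 genes, peroxiredoxin counts were 2816, 3736, 3710 and 2207 in the Fnip2 C/C mice 590, 593, 599 and 638, and 4344, 4699, 5832, 4481 and 5291 in the Fnip2 T/T mice 607, 608, 609, 657 and 658. Prdx1 supplied 2.68% to 7.73% of this sum in Fnip2 C/C and 14.1% to 35.9% in Fnip2 T/T WAT. In liver, its part lay between 49.2% and 52.0% in Fnip2 C/C and between 44.1% and 57.1% in Fnip2 T/T.

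No difference by genotype was detected in liver. None of the 10 was called, as was the case for all 11710 genes tested (0%), none had an unadjusted limma p under 0.05 (231 of all genes did), and edgeR and DESeq2 on the whole reads called none of the 10. Log2 fold changes ran from -0.27 for Gpx4, which stood at -0.036 without the Fnip2 C/C mouse 590, to 0.19 for Gpx1, which stood at 0.093 without the Fnip2 T/T mouse 659, and none of the genes had genotypes that did not overlap, against 0.248% of all genes tested in liver.

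Prdx1 had 8983, 7788, 7859, 9288 and 8794 normalized counts in the livers of the Fnip2 C/C mice 590, 591, 592, 638 and 639, and 6842, 9578, 7462, 9585 and 5933 in those of the Fnip2 T/T mice 607, 608, 657, 658 and 659. The Fnip2 C/C values lay within the Fnip2 T/T range, with a log2 fold change of 0.14 (95% interval -0.16 to 0.44). Sod2 had 1358, 1426, 1139, 1144 and 1082 counts against 1065, 1424, 817, 1549 and 832, a log2 fold change of 0.15 (95% interval -0.21 to 0.52). Prdx3 had 181, 213, 167, 166 and 157 counts against 236, 192, 96.3, 275 and 185, a log2 fold change of -0.08 (95% interval -0.55 to 0.39). None of these 3 intervals reached the log2 fold change of its gene in WAT. The Fnip2 T/T livers spread more widely for all 3 genes, with a coefficient of variation of 29.6% against 12.3% for Sod2 and 33.9% against 12.4% for Prdx3.

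**Figure D2:**
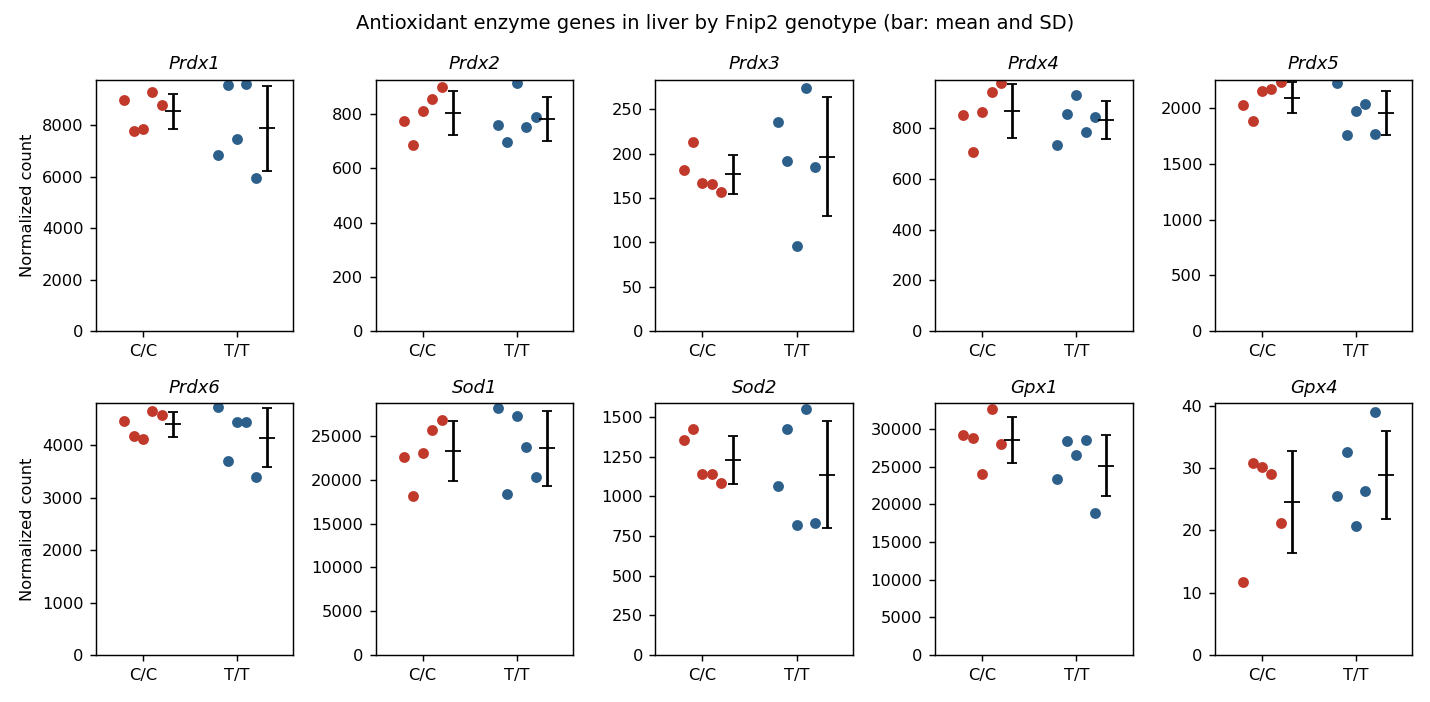
Normalized counts (y axis, linear, from 0) of the same 10 genes in liver, with 1 point per mouse (5 Fnip2 C/C in red, 5 Fnip2 T/T in blue, in order of mouse number) and bars for the mean and SD. The genotypes overlap in every panel.

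The other genes had similar means in the livers of both genotypes. Gpx1 averaged 28571 ± 3096 normalized counts in Fnip2 C/C and 25163 ± 4094 in Fnip2 T/T livers (SD, n = 5 each), and Sod1 averaged 23287 ± 3381 and 23607 ± 4260. Prdx6 averaged 4400 ± 237 and 4147 ± 568, Prdx5 averaged 2089 ± 139 and 1952 ± 196, Prdx4 averaged 868 ± 106 and 830 ± 74.9, and Prdx2 averaged 804 ± 80.5 and 782 ± 81.3. Gpx4 was low, at 24.5 ± 8.14 and 28.8 ± 7.06. The Fnip2 T/T mouse 659 had the lowest liver value of Prdx1, Prdx6 and Gpx1.

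The effect of the genotype differed between the tissues for the same 3 genes. In a fit of all 19 libraries, the log2 fold change in WAT minus that in liver was -3.40 for Prdx1 (SE 0.40, adjusted p = 1.5e-05 in limma), -2.88 for Sod2 (SE 0.48, adjusted p = 0.00038 in limma) and -2.66 for Prdx3 (SE 0.80, adjusted p = 0.019 in limma). Of the 10404 genes in this fit, 29.2% passed the same threshold. Prdx5 (-0.67, limma adjusted p = 0.058) and Prdx6 (-0.56, limma adjusted p = 0.10) did not pass, and the other 5 genes differed by 0.09 to 0.72 without passing. The call of Prdx3 was lost without mouse 638 (-2.35, limma adjusted p = 0.073) and without mouse 657 (-2.39).

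**Figure D3:**
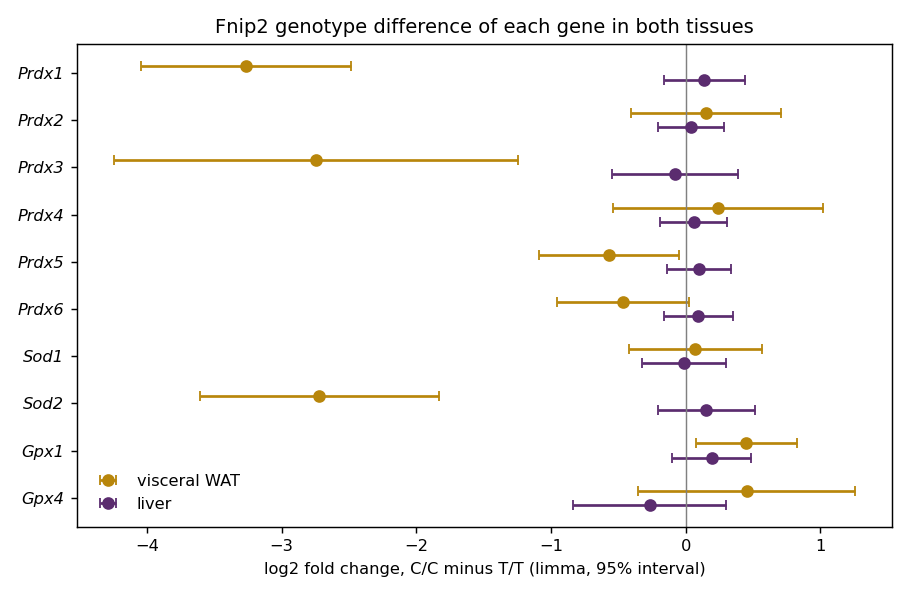
Log2 fold change of each gene, Fnip2 C/C minus Fnip2 T/T (x axis), in visceral WAT and liver, with 95% intervals from limma as bars. In WAT, Prdx1, Sod2 and Prdx3 lie at -3.27, -2.72 and -2.75, while all liver values lie between -0.27 and 0.19.

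Both tissues were sequenced from 6 of the mice, and each value was set against the median of the Fnip2 T/T libraries of its tissue. Prdx1 in the Fnip2 C/C mouse 590 reached 16.0% of that median in WAT and 120% in liver, and in the Fnip2 C/C mouse 638 it reached 4.48% and 124%. Sod2 in the same mice reached 22.4% and 11.8% in WAT, and 127% and 107% in liver. For the 4 Fnip2 T/T mice, the WAT values of Prdx1 ranged from 71.1% to 124% and the liver values from 91.7% to 129%. Their Sod2 values ranged from 53.2% to 166% in WAT and from 76.7% to 145.5% in liver. Prdx3 reached 24.8% and 5.29% in the WAT of the Fnip2 C/C mice 590 and 638, and 94.4% and 86.2% in their livers. The Fnip2 T/T mouse 608 was also low for Prdx3 in WAT (30.75%), and the Fnip2 T/T mouse 657 in liver (50.1%). For Prdx1 and Sod2, the low values were thus seen in the WAT and not in the liver of the same animals, which are 2 Fnip2 C/C mice.

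**Figure D4:**
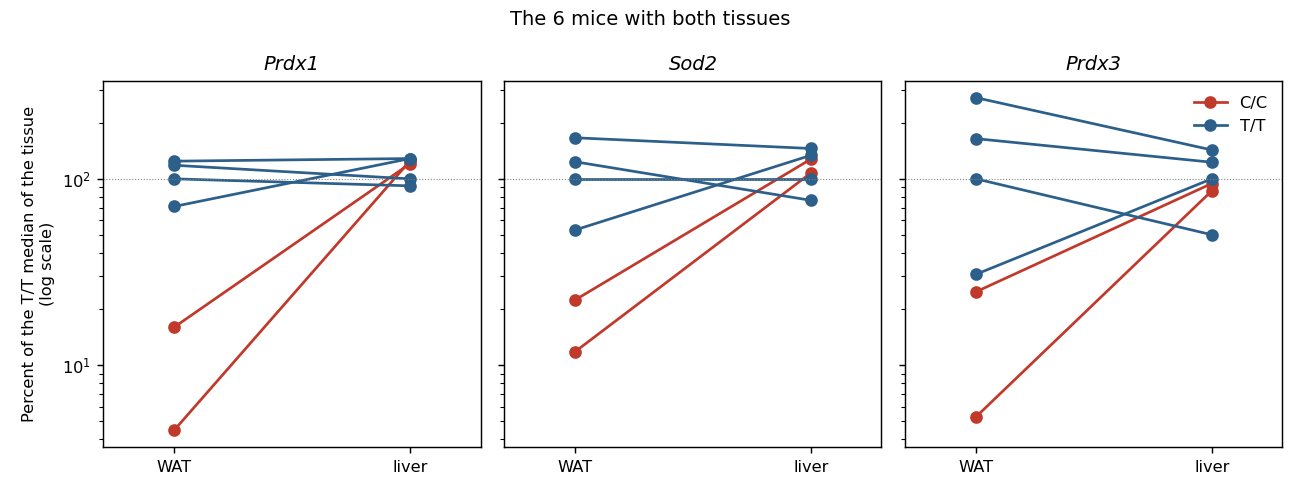
Normalized count of Prdx1, Sod2 and Prdx3 as a percentage of the Fnip2 T/T median of the tissue (y axis, log scale), with a line joining the WAT and liver of each of the 6 mice sequenced in both (Fnip2 C/C in red, Fnip2 T/T in blue). The 2 Fnip2 C/C mice are at 16.0% and 4.48% for Prdx1 in WAT and at 120% and 124% in liver.

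On the RPM scale, Fnip2 T/T livers held 1172 ± 251 for Prdx1, 169 ± 50.3 for Sod2 and 3739 ± 601 for Gpx1, and Fnip2 T/T WAT held 288 ± 92.2, 114 ± 58.2 and 705 ± 65.6 (SD, n = 5 each). The tables of the tissues were normalized separately, so these levels were not tested against each other.

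Some of these genes have close copies elsewhere in the genome, whose reads may be split or dropped in counting. The last 300 bases of Gpx4 transcripts match those of Gpx4-ps2 at 99.7%, and the row of Gpx4-ps2 held 14.6 to 67.5 normalized counts in WAT and 32.9 to 64.3 in liver, against 16.7 to 54.2 and 11.7 to 39.0 in the row of Gpx4 itself, so the level of Gpx4 is uncertain in both tissues. For Prdx1, the copies Gm21399 and Gm7204 match at 98.7%, and Gm21399 held up to 15.2 counts in Fnip2 C/C and up to 10.7 in Fnip2 T/T WAT. Prdx2 has a pseudogene, Tdpx-ps1 (97.7% over its last 300 bases), and the row Prdx2-ps1 reached at most 7.24 counts in liver. The end of Sod1 matches Gm8566 at 97.8% over 228 bases, and Gm8566 held up to 11.9 counts in WAT and up to 172 in liver. Part of the end of a Sod2 transcript, 186 to 192 bases long, matches stretches in transcripts of 6 other genes at 95.2% to 96.8%. These are partial stretches, found on either strand, and not copies of the whole Sod2 end. No copy or partial match was found for Prdx3, Prdx4, Prdx5, Prdx6 or Gpx1. Prdx6b, a gene named as a relative of Prdx6, was called lower in Fnip2 C/C WAT, with 1.17 to 20.6 against 20.5 to 33.1 counts (log2 fold change -1.70, SE 0.54, limma adjusted p = 0.030). On the opposite strand, Prdx2 overlaps Junb and Rnaseh2a, Prdx5 overlaps Trmt112 and Sod1 overlaps Scaf4, and the strand setting of the counting is not given in the sources used here. In WAT these 4 rows held at most 33.3, 84.2, 14.0 and 99.6 normalized counts. A Junb transcript matches 176 of the last 300 bases of a Prdx2 transcript at 100% on the opposite strand. If the counting ignored strand, reads there may have been dropped, which low Junb counts would not show. The level of Prdx2 is therefore uncertain as well.

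NRF2 is the transcription factor that switches on many antioxidant genes from antioxidant response elements, and Prdx1 is a well known target. The core of this element was searched as TGACNNNGC on both strands in the RefSeq promoter windows (build GRCm38.p6), which run from 250 bases before to 50 bases after a transcription start. All members but Prdx6 had a window, and matches stood in those of Prdx1 and Sod1, that is, in 2 of 12 windows, against 12.4% of all 32851 windows. Counted by gene, 2 of 9 members with a window held a match. The core stood in 17.0% of the genes tested in WAT that had a window, and in 17.9% of those called lower. Both matches are shown because 1 belongs to the gene with the largest difference in WAT and the other to a gene without one. The match is in capitals, with the core itself on the opposite strand.
Prdx1 (chr4:116685458-116685482, + strand): gggaaagcGCTGAGTCAtcccccgt
Sod1 (chr16:90220698-90220722, + strand): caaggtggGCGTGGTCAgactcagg
The window of Sod2 and that of Prdx3, the other called genes, hold no match to these letters. A match describes the letters in this window and not a bound site.

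The wider antioxidant system changed in both directions in WAT. Over 8 lists of related genes, 113 genes were tested, of which 29 were lower and 15 higher in Fnip2 C/C at a limma adjusted p under 0.05 (38.9%, against 32.1% of all genes), with a median log2 fold change of -0.24. In liver, none of 110 genes was called, and 1 had an unadjusted p under 0.05.

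**Figure D5:**
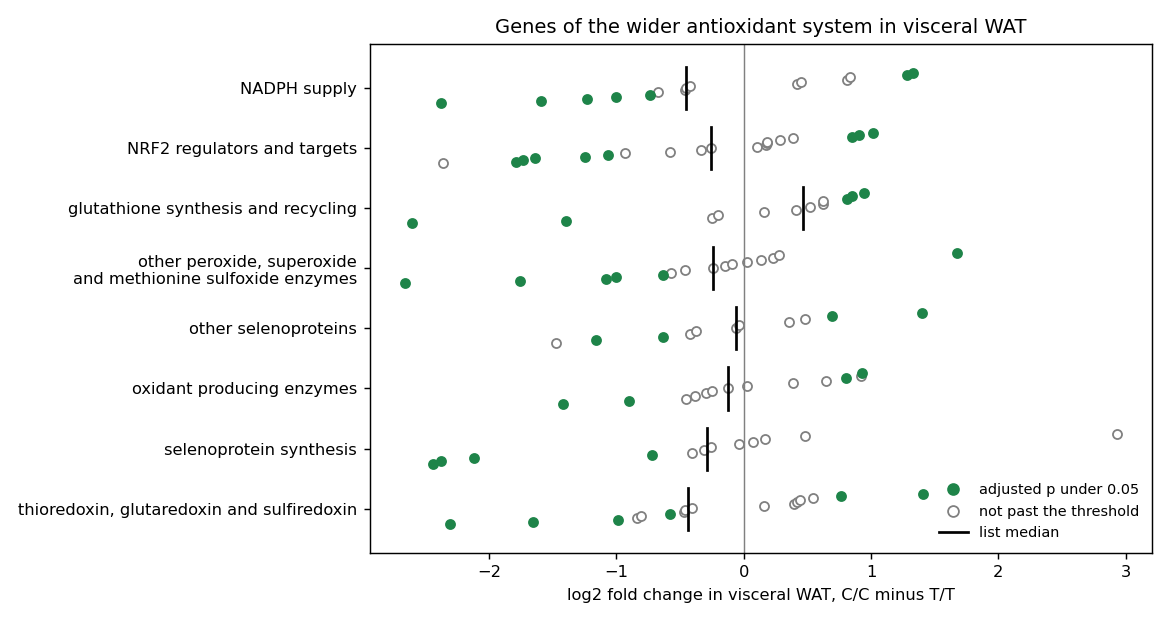
Log2 fold change in visceral WAT, Fnip2 C/C minus Fnip2 T/T (x axis), of each gene tested in 8 lists of the wider antioxidant system. Filled points passed a limma adjusted p of 0.05 (29 lower, 15 higher), open points did not, and the black line marks the median of the list.

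Peroxiredoxins are recharged by thioredoxin, and of the 16 thioredoxin, glutaredoxin and sulfiredoxin genes tested, 4 were lower and 2 higher (median log2 fold change -0.43). Txn1, the cytosolic thioredoxin, fell from 572 ± 243 normalized counts (SD, n = 5) with T/T to 117 ± 60.5 (SD, n = 4) with C/C, and its log2 fold change was -2.31 (SE 0.39, adjusted p = 0.0016 in limma). Txndc17, a thioredoxin-related protein, fell by 1.66 on the log2 scale, whereas Txnrd1, the cytosolic thioredoxin reductase, rose by 1.41. The mitochondrial thioredoxin Txn2 rose from 947 ± 196 to 1586 ± 146 normalized counts, opposite to the matrix enzymes Prdx3 and Sod2.

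Genes that supply NADPH, the final reducing agent of the thioredoxin and glutathione systems, were lower in 5 and higher in 2 of 15 cases (median -0.45). Idh1, the cytosolic NADP-dependent isocitrate dehydrogenase, and G6pdx, the first enzyme of the pentose phosphate pathway, had log2 fold changes of -2.38 and -1.59. Pgls, the next enzyme of that pathway, had one of 1.33, from 992 ± 236 in Fnip2 T/T to 2456 ± 335 normalized counts in Fnip2 C/C.

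Of 12 genes of glutathione synthesis and recycling, 2 were lower and 3 higher (median 0.47). Hagh, the glyoxalase that frees glutathione from lactoylglutathione, fell by 2.61 on the log2 scale, and Esd, which frees it from formylglutathione, had a log2 fold change of -1.39. Gclm, the modifier subunit of the enzyme that starts glutathione synthesis, rose by 0.81.

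Among 15 other enzymes that act on peroxide, superoxide or oxidized methionine, 5 were lower and 1 higher (median -0.24). The paraoxonase Pon2 and the mitochondrial methionine sulfoxide reductase Msrb2 had log2 fold changes of -1.76 and -2.66, and a further such reductase, Msra, went from 134 ± 11.4 to 68.7 ± 24.5 normalized counts. Catalase (Cat), which destroys hydrogen peroxide in peroxisomes, went from 2619 ± 824 to 1292 ± 521 normalized counts (log2 fold change -1.08, limma adjusted p = 0.022). The 1 gene that rose was Gpx3, the secreted glutathione peroxidase, from 6795 ± 3882 to 22536 ± 16330 normalized counts (log2 fold change 1.68, SE 0.45). Its genotypes overlapped and spread widely, with 12196 to 46909 in Fnip2 C/C and 3020 to 13228 in Fnip2 T/T. Gpx3 rose beside Gpx1, whose difference missed the threshold. Cat and Gpx3 are given in addition to the 3 genes per list with the lowest p.

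Of 19 NRF2 regulators and targets, 5 were lower and 3 higher (median -0.26). The iron storage subunit Fth1 (log2 fold change -1.79), the biliverdin reductase Blvrb (-1.73) and the small Maf protein Mafg (-1.24), a partner of NRF2, were lower. Nfe2l2, which encodes NRF2 itself, and its repressing competitor Bach1 both rose, by 0.90 and 1.02. The remaining higher gene was the NRF2 target Hmox1, with a log2 fold change of 0.85 (limma adjusted p = 0.010). The members of this list thus did not move one way.

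Gpx1 and Gpx4 need selenium as selenocysteine. Of 12 genes of selenoprotein synthesis and of selenium transport and binding, 4 were lower and none was higher (median -0.28). Selenop, the plasma carrier of selenium, fell from 1677 ± 617 to 390 ± 159 normalized counts (log2 fold change -2.11), and Trnau1ap and Sephs2, which act on the selenocysteine tRNA and on selenophosphate, had log2 fold changes of -2.44 and -2.38. Of 11 other selenoproteins, 2 were lower and 2 higher (median -0.06), with Selenok at -1.16, Selenos at -0.63 and Selenow at 1.40. On the side of oxidant production, 2 of 13 genes were lower and 2 higher (median -0.12). Cybb, the catalytic subunit of the phagocyte NADPH oxidase, had a log2 fold change of 0.81.

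The mean standardized level of the 10 genes was followed most closely in WAT by Ankrd46 (Pearson r = 0.966), Tmem242 (0.937), Stau1 (0.917), Stx8 (0.915) and Mtdh (0.906) over 9 libraries, and in liver by Psmd8 (0.942), Gorasp2 (0.935), Tuba4a (0.934), Romo1 (0.933) and Bsg (0.929) over 10 libraries. These were the highest among genes with a mean of at least 100 normalized counts, and the libraries share their genotypes and size factors with the members. The mean level joins genes with WAT fold changes of both signs, so it does not follow Prdx1, Sod2 and Prdx3. It stood at 0.32 in the Fnip2 C/C mouse 599 and at -0.28 in the Fnip2 T/T mouse 657, and Ankrd46 had a log2 fold change of -0.23.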

How the data were processed

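The labels list 76 run samples, 4 per mouse and tissue, which the deposited tables combine into 1 column, and columns were grouped here by the genotype and mouse number in the labels. One further WAT column without a label (1 unused column) was left out. The deposited signal values are gene-level read counts after division by a single size factor for each library, made by the authors for each tissue on its own. The submitters' processing notes name FastQC 0.11.9, HISAT2, SAMtools 1.12, HTSeq, DESeq2 and GRCm39, with no role or order. Whole reads were recovered for 100% of values (within 0.001). Libraries were made from 500 ng (WAT) or 250 ng (liver) of RNA, without mention of molecular identifiers.

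Values were tested as log2(normalized count + 1), for genes with a mean of at least 10, with limma 3.58.1 in R 4.3.3 (trend and robust options) and Benjamini-Hochberg adjustment over all genes, with genotype as the only term and a threshold of 0.05. The tissues were compared as an interaction over 19 libraries of 13 mice. The pseudocount makes fold changes of low genes too small. The limma p-values rest on the spread between mice after it was drawn toward a trend over all genes, not on each gene's own spread alone. The main fit of both tissues treated its 19 libraries as independent, although 6 mice gave both tissues. The fits were also run on simulated counts with a known set of changed genes, far smaller than the set called in WAT. That run therefore does not vouch for the WAT calls, and its outcome is not reported here. Alternatives were other pseudocounts, filters and scalings, library weights, a mouse number term, edgeR 4.0.16 and DESeq2 1.42.0 on the recovered reads, exact permutation tests, and leaving out each mouse.

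The members, the 8 pathway lists and the 15 marker lists (adipocyte, adipose progenitor and fibroblast, mesothelial, macrophage, T, B and NK cell, endothelial, smooth muscle and pericyte, erythroid, ovary, oviduct and uterus, exocrine pancreas, intestine and epithelium, hepatocyte, hepatic stellate and cholangiocyte, Schwann and nerve) were chosen with earlier results of these data known. The text names all members, the 3 genes of each pathway list with the lowest p in WAT (of which some are not reported here), copies of members, and the 5 genes most like the members in each tissue. Txn2, Cat, Gpx3, Nfe2l2, Bach1 and Hmox1 were chosen after their values were seen. Copies were sought with blastn against GENCODE vM21 transcripts (at least 100 bases and 95% identity), an annotation of GRCm38.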

Additional observations from a re-analysis of the deposited data

Results flagged for a closer look

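The effect of the genotype differed between WAT and liver, by the test of the difference itself, for Prdx1 (-3.40 on the log2 scale), Sod2 (-2.88) and Prdx3 (-2.66). Prdx1 and Sod2 were low in 4 of 4 Fnip2 C/C WAT libraries, while Prdx3 overlapped between the genotypes. Among the Fnip2 T/T WAT libraries, Prdx4 stood apart in mouse 609, at 218 normalized counts against 73.4 to 107 in the other 4 mice. This was 1 of 40 groups examined, and chance sets apart about 1 in 20.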

How the results depend on the processing

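Prdx1 and Sod2 were called lower in WAT and different between the tissues under every alternative. The count of called members moved by over 1.5 times under quantile scaling, which called 5 in WAT and 5 between the tissues by adding Prdx5 and Prdx6. Leaving out 1 mouse at a time gave 3 members in WAT throughout, 0 in liver, and 2 (without mouse 638) to 5 (without mouse 599) between the tissues. With mouse number as a replicate block for the 6 mice with both tissues (within-mouse correlation -0.11), the members called between the tissues were the same 3. Same numbers mark the same mouse, and no genotype shares a mouse with the other. The pathway genes called in WAT ranged from 35 to 49 and in liver stayed at 0. Signs turned only for values that passed no test. They did so for Prdx2 in WAT (-0.0023) and between tissues (-0.012) and Sod1 in WAT (-0.046) and between tissues (-0.030) with quantile scaling, Sod1 in WAT with the same total (-0.0037), and Sod1 in liver with quantile scaling, a mouse number term and library weights (0.023, 0.023 and 0.040). Leaving out each mouse moved Prdx2 from -0.12 to 0.32, Prdx4 from -0.010 to 0.59 and Sod1 from -0.018 to 0.18 in WAT, Prdx3 from -0.32 to 0.060 and Sod1 from -0.098 to 0.074 in liver, and Prdx2 from -0.16 to 0.30, Prdx4 from -0.070 to 0.52 and Sod1 from -0.050 to 0.23 between the tissues. The cause was not tested. Under a minimum mean of 50, Prdx3 in WAT and Gpx4 were not tested. Reads of Prdx3 in WAT (3 to 239) and of Gpx4 limit what can be said of these genes.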
